A study of Homo sapiens with 4 samples.

Results

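The glycoproteins of the extracellular matrix were followed in BJ-TE, a fibroblast line that goes back to BJ cells of human foreskin, across a change in cell density and a hairpin against the transcription factor p73. The set held 44 genes, named as laminins, fibulins, thrombospondins and other matrix glycoproteins and chosen with earlier results of these data known. On the array 11963 genes had a probe set of their own. Of the 44, 41 had at least 1 such probe set (84 in all), and 31 reached the brightness filter, a mean log2 value equal to an intensity of about 111. LAMA3, SPON2 and CTHRC1 were not analysed here. The 10 members measured below the filter were LAMA2, ELN, FBN2, MFAP5, TNXB, SPARCL1, POSTN, SPON1, ECM2 and MGP, with intensities between 2.26 and 184, and they were neither tested nor shown to be absent.

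There were 4 samples, each measured on 1 Affymetrix array. At 100% confluence these were cells with a short hairpin RNA (shRNA) against p73 and cells with a control hairpin labelled ns. At 40% they were again cells with p73 shRNA and cells with ns shRNA. All cells thus carried a hairpin, and all came from the same line, for which the labels do not say whether it is a clone. No group had a replicate, so a ratio of 2 single arrays has no replicate check, and 4 arrays limit how precise any value can be. TP73, the hairpin's target, had 1 probe set, with intensities of 2.04 (p73 shRNA) and 1.65 (ns shRNA) at 100% and 2.09 (p73 shRNA) and 1.68 (ns shRNA) at 40%, far below the filter, so the p73 labels have no check in the data. All 11 fibroblast markers, among them COL1A1, VIM and PDGFRB, lay above the filter, against 1 of 9 measured epithelial markers (KRT18), 1 of 8 endothelial markers (ENG), 5 of 8 smooth muscle and pericyte markers, 0 of 5 blood cell markers and 0 of 4 melanocyte markers. The summed intensity of the fibroblast markers was 84163 (p73 shRNA) and 79049 (ns shRNA) at 100% confluence and 73012 (p73 shRNA) and 64627 (ns shRNA) at 40%.

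Matrix glycoproteins are secreted and built into networks outside the cell. Laminins are trimers of an alpha, a beta and a gamma chain, which are tied by nidogens to the collagen network of the basement membrane, where the proteoglycans perlecan (HSPG2) and agrin (AGRN) also sit. Elastic fibres have a scaffold of fibrillin microfibrils on which elastin is laid down with the help of fibulins. Matricellular proteins such as thrombospondins, tenascin C and SPARC are not mainly structural but modulate the contact between cell and matrix, and fibroblasts are known for making all of these.

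The 250 bases before the transcription start are shown for 5 members: LAMA4, LAMA5, OLFML2A and SRPX, the members that passed the test with p73 shRNA, and THBS2, a member that rose at confluence and whose window, like that of ECM1, held 3 of the motifs. The sequences are from RefSeq on build GRCh38.p14, written 5′ to 3′ along the gene's strand, and capitals mark the motif matches.
LAMA4 (chr6:112254568-112254817, minus strand): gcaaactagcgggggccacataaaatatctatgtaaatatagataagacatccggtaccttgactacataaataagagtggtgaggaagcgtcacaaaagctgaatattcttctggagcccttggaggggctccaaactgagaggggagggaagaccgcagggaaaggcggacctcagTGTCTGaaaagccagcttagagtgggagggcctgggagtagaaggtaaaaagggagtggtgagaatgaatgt
LAMA5 (chr20:62367313-62367562, minus strand): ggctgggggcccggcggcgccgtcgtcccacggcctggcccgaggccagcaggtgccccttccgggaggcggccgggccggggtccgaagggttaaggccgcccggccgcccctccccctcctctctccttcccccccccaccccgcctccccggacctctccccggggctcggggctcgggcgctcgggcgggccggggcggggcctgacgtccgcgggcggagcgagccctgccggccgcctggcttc
OLFML2A (chr9:124776883-124777132, plus strand): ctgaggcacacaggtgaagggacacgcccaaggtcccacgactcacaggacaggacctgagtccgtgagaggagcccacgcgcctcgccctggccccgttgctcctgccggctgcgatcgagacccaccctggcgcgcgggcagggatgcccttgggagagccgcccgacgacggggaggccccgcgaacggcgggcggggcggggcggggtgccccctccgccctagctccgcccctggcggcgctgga
SRPX (chrX:38220872-38221121, minus strand): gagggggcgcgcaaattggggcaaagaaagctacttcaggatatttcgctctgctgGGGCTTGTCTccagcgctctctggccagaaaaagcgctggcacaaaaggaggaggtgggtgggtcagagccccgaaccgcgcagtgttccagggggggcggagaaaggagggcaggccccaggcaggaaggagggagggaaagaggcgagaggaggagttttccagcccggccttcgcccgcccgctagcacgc
THBS2 (chr6:169253847-169254096, minus strand): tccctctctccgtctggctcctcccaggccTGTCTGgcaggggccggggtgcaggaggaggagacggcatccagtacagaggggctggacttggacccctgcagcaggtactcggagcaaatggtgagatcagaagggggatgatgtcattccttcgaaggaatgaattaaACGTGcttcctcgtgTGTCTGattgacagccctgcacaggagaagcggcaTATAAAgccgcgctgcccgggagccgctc
The motifs searched on both strands were the core of the hypoxia response element (ACGTG), the AP-1 site (TGANTCA), the TATA box (TATAAA), a SMAD-binding element variant (CAGACA) and the p53 family half-site. Of the 31 members above the filter 26 had a promoter entry; AGRN, CRIM1, EFEMP1, MATN2 and SPOCK1 had none. The capitals in LAMA4 are a CAGACA match on the opposite strand, 72 to 67 bases before the start. SRPX held the p53 family half-site, 194 to 185 bases before the start, and THBS2 held the hypoxia core (79 to 75 bases), a TATA box (29 to 24 bases) and a pair of CAGACA matches. No match overlapped another in these windows, and LAMA5 and OLFML2A held none of the 5 motifs. Each share is set beside that of the 5716 tested genes with an entry, which passed the same filter, and that of all 27305 promoters. The hypoxia core was found in 1 of the 26 member promoters, against 24.8% of the tested genes and 18.7% of all, and the p53 family half-site in 1 of 26, against 4.39% and 5.53%. CAGACA was found in 5 of 26 (19.2%), in LAMA4, THBS2, TNC, HSPG2 and ECM1, against 9.24% of the tested genes and 13.6% of all. The AP-1 site (ECM1, MFAP2) and the TATA box (ECM1, THBS2) were found in 2 of 26 each (7.69%); the AP-1 site was in 3.69% of the tested genes and 6.6% of all, and the TATA box in 4.83% and 11.1%, so that for the TATA box the member share lay above one and below the other. The median GC content was 68.8% in the member windows, 65.6% in those of the tested genes and 58% in all. A match of these letters describes the sequence only.

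The first comparison set cells at 100% against cells at 40% confluence, the stages named in the series design, and took the hairpins for repeats. Of the 31 members above the filter 20 rose, 2 fell and 9 did not pass the test at 100% confluence, with a median log2 change of 0.74. Over all 6759 genes tested 18.3% rose and 12.3% fell, with a median of 0.01 (limma without an intensity trend, additive model, Benjamini-Hochberg adjusted p below 0.05). Since the members were chosen with earlier results of these data known, this contrast with all genes is descriptive only. The members had the same direction with both hairpins in 30 of 31 cases, the exception being LAMC1, and over all genes in 5148 of 6759. The filter uses the mean of the arrays, so LAMA5 and OLFML2A, below an intensity of 111 at 40% with both hairpins, passed through their values at 100%; LAMA4 lay below it at 40% with ns shRNA only. On the beta-actin controls the intensity of the 3' over that of the 5' probe set, which reflects RNA integrity, also differed with confluence: the ratio was 1.38 (p73 shRNA) and 1.47 (ns shRNA) at 100% and 1.09 (p73 shRNA) and 1.24 (ns shRNA) at 40%, lower with p73 shRNA at both stages. The same ratio of the GAPDH controls was 1.02 with either hairpin at 100%, against 0.98 (p73 shRNA) and 0.93 (ns shRNA) at 40%. The part of RNA integrity in these results was not tested. In bulk RNA, fewer cells of a type and less RNA per cell cannot be told apart. Without the brightness filter limma called 0 of 11963 genes at confluence, 2336 having an unadjusted p below 0.05, so every call depends on that filter.

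**Figure D1:**
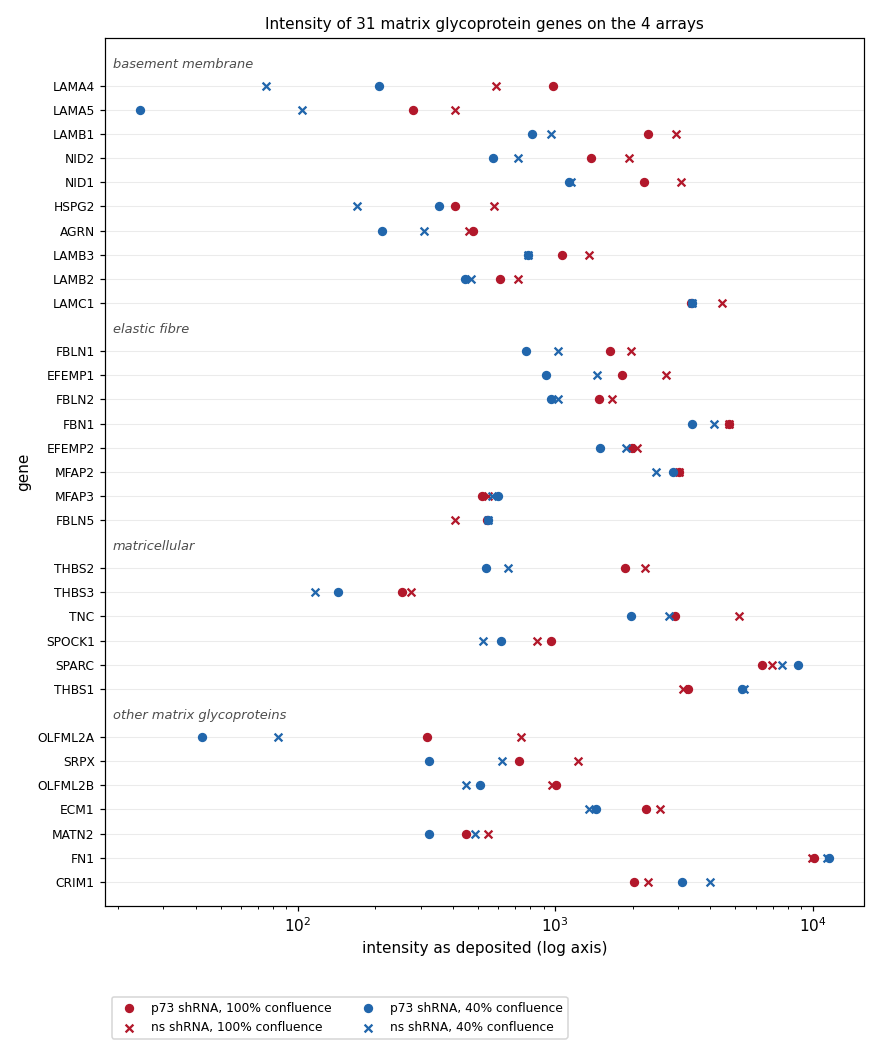
Intensity as deposited (log axis) of the 31 members above the filter on each of the 4 arrays, grouped by role and ordered within a group by the average change with confluence. Red symbols are arrays at 100% confluence and blue ones at 40%, circles are p73 shRNA and crosses ns shRNA; for LAMB1, THBS2 and OLFML2A both red symbols lie to the right of both blue ones, and for THBS1 and CRIM1 to the left.

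The basement-membrane genes were mostly higher in confluent cells: 9 of the 10 tested rose, none fell, and their median log2 change was 1.07. LAMA4, the laminin alpha 4 chain of mesenchymal and vascular basement membranes, had intensities of 979 (p73 shRNA) and 589 (ns shRNA) at 100% confluence and 207 (p73 shRNA) and 74.9 (ns shRNA) at 40%. LAMA5, the broadly expressed alpha 5 chain, had 281 (p73 shRNA) and 408 (ns shRNA) at 100% and 24.3 (p73 shRNA) and 104 (ns shRNA) at 40%. Both arrays of confluent cells lay above both arrays at 40% for each alpha chain. LAMA4 changed by a log2 of 2.49 (SE 0.19, limma adjusted p 6.72e-08) and LAMA5 by 2.44 (SE 0.23, limma adjusted p 5.69e-07). The other 4 LAMA4 probe sets lay below the filter and differed: their average changes were 1.37, 0.92, -0.13 and -0.18, and the one at 1.37 changed by -0.04 with p73 shRNA and by 2.79 with ns shRNA. LAMA5 had a single probe set, and it counts among the 9 risen although it passed the filter only through its values at 100%.

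The partner chains of these trimers changed to differing extents. LAMB1, the beta 1 chain, had intensities of 2297 (p73 shRNA) and 2958 (ns shRNA) at 100% and 809 (p73 shRNA) and 966 (ns shRNA) at 40%, a log2 change of 1.55 (SE 0.18, limma adjusted p 5.98e-06), and 0.82 in its other probe set. LAMC1, the gamma 1 chain shared by most laminins, had 3376 (p73 shRNA) and 4429 (ns shRNA) at 100%, against 3405 (p73 shRNA) and 3384 (ns shRNA) at 40%, and did not pass the test, with a log2 change of 0.19 (SE 0.18, limma adjusted p 0.462). The range of LAMC1 at 100% thus reached into that at 40%, and its other probe set changed by 0.30. LAMB2, the beta 2 chain, rose by 0.52 (limma adjusted p 0.034) and LAMB3, the beta 3 chain known from epithelial laminin, by 0.60 (limma adjusted p 0.0178). The call of LAMB2 was lost after quantile normalization (limma adjusted p 0.0641).

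The nidogens, which link the laminin and collagen networks, rose together. NID1 had intensities of 2220 (p73 shRNA) and 3079 (ns shRNA) at 100% and 1132 (p73 shRNA) and 1156 (ns shRNA) at 40%, a log2 change of 1.18 (SE 0.18, limma adjusted p 0.000141). NID2 had 1374 (p73 shRNA) and 1942 (ns shRNA) at 100% and 573 (p73 shRNA) and 716 (ns shRNA) at 40%, a log2 change of 1.34 (SE 0.18, limma adjusted p 2.9e-05). For both, the confluent arrays lay above the others, with the ns shRNA array the highest of the 4. AGRN, agrin, rose by 0.86 (SE 0.19, limma adjusted p 0.00242), with 0.29 in its other probe set above the filter.

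HSPG2, the core protein of perlecan, differed between the hairpins: it had 409 (p73 shRNA) and 577 (ns shRNA) at 100% and 354 (p73 shRNA) and 169 (ns shRNA) at 40%. Its log2 change with confluence was 0.20 with p73 shRNA and 1.71 with ns shRNA, and the additive model gave 0.95 (SE 0.25, limma adjusted p 0.00896). The lowest value was that of the ns shRNA array at 40%, and the call was lost after quantile normalization (limma adjusted p 0.0589) and with the mean of its probe sets (limma adjusted p 0.0679). The other HSPG2 probe set, below the filter, changed by 0.28 with p73 shRNA and by -0.08 with ns shRNA. The difference between the hairpins has no test in this design.

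**Figure D2:**
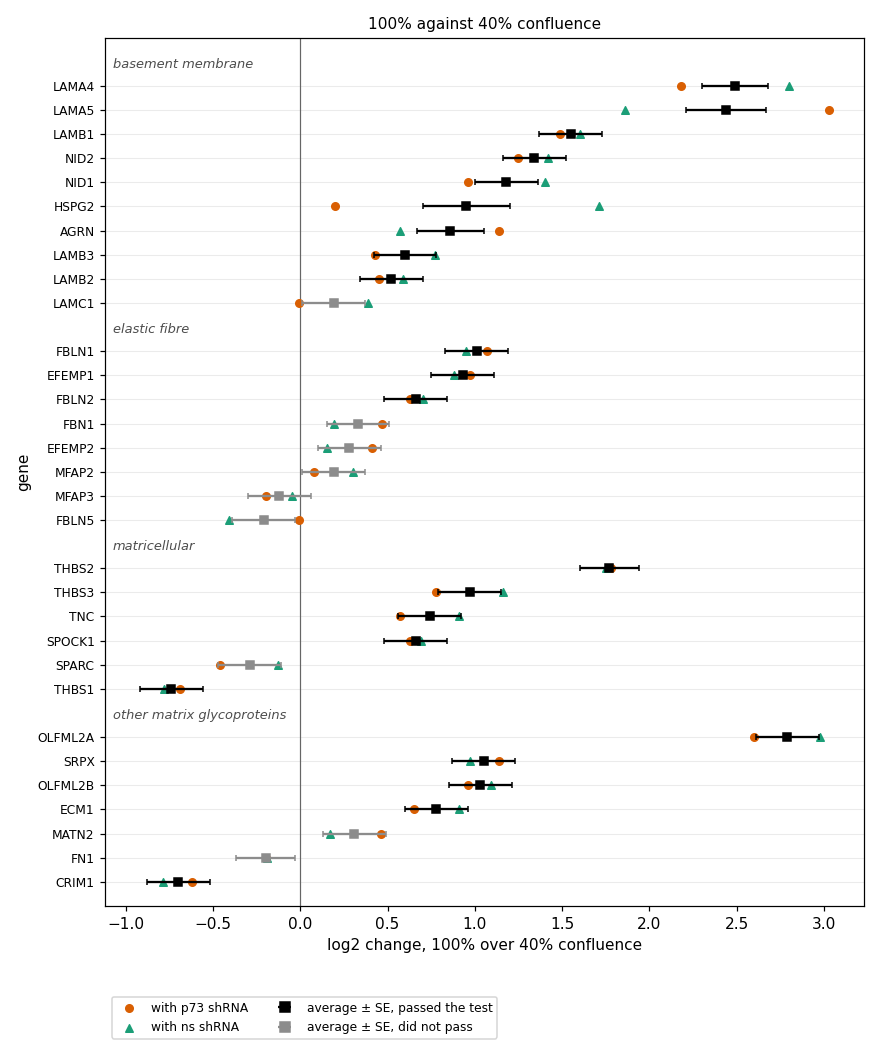
Log2 change of the 31 members, 100% over 40% confluence, with p73 shRNA (circles) and with ns shRNA (triangles), and the average with its SE from limma (squares, black where the adjusted p was below 0.05). The basement-membrane averages lie between 0.19 and 2.49 and the elastic-fibre averages between -0.21 and 1.01.

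Of the 8 elastic-fibre genes tested 3 rose at 100% confluence, all of them fibulins in the wide sense, and none fell. The average was above 0 in 6 of the 8, with a median log2 change of 0.30, and with an intensity trend limma called 4 risen. FBLN1, fibulin 1, had intensities of 1627 (p73 shRNA) and 1977 (ns shRNA) at 100% and 768 (p73 shRNA) and 1020 (ns shRNA) at 40%, a log2 change of 1.01 (SE 0.18, limma adjusted p 0.000421). EFEMP1, fibulin 3, had 1816 (p73 shRNA) and 2688 (ns shRNA) at 100% and 922 (p73 shRNA) and 1455 (ns shRNA) at 40%, a change of 0.93 (SE 0.18, limma adjusted p 0.000816). FBLN2, fibulin 2, had 1484 (p73 shRNA) and 1660 (ns shRNA) at 100% and 958 (p73 shRNA) and 1021 (ns shRNA) at 40%, a change of 0.66 (SE 0.18, limma adjusted p 0.00881). In these 3 genes both confluent arrays lay above both arrays at 40%, and the p73 shRNA array was the lower of each pair.

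The microfibril genes and the remaining fibulins did not pass. FBN1, fibrillin 1, which forms the microfibril itself, had 4718 with either hairpin at 100%, against 3393 (p73 shRNA) and 4147 (ns shRNA) at 40%, a log2 change of 0.33 (SE 0.18, limma adjusted p 0.17); with an intensity trend limma gave it an adjusted p of 0.0499. EFEMP2, fibulin 4, needed for elastic fibre assembly, had 1990 (p73 shRNA) and 2083 (ns shRNA) at 100% and 1490 (p73 shRNA) and 1882 (ns shRNA) at 40%, a change of 0.28 (limma adjusted p 0.246). FBLN5, fibulin 5, which binds elastin, had 544 (p73 shRNA) and 409 (ns shRNA) at 100% and 546 (p73 shRNA) and 549 (ns shRNA) at 40%, a change of -0.21 (limma adjusted p 0.409). FBLN5 thus stood lower on 1 array, that of ns shRNA at 100%, while the other 3 lay within 5 intensity units of each other. The microfibril-associated MFAP2 and MFAP3 changed by 0.19 and -0.12. Elastin itself, ELN, was below the filter, with 60.1 (p73 shRNA) and 56.8 (ns shRNA) at 100% and 23.5 (p73 shRNA) and 50.7 (ns shRNA) at 40%.

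Matricellular genes changed in both directions: 4 of 6 tested rose, 1 fell and 1 did not pass, with a median log2 change of 0.70. THBS2, thrombospondin 2, an inhibitor of angiogenesis, had intensities of 1871 (p73 shRNA) and 2240 (ns shRNA) at 100% and 537 (p73 shRNA) and 657 (ns shRNA) at 40%. Its log2 change was 1.77 (SE 0.17, limma adjusted p 1.38e-06), with 1.78 and 1.75 in p73 shRNA and ns shRNA cells. THBS1, thrombospondin 1, an activator of latent transforming growth factor beta, moved the other way, with 3293 (p73 shRNA) and 3130 (ns shRNA) at 100% and 5325 (p73 shRNA) and 5397 (ns shRNA) at 40%, a change of -0.74 (SE 0.18, limma adjusted p 0.00427). THBS3, thrombospondin 3, had 254 (p73 shRNA) and 275 (ns shRNA) at 100% and 143 (p73 shRNA) and 116 (ns shRNA) at 40%, a change of 0.97 (SE 0.18, limma adjusted p 0.000734). In the tested probe sets the arrays of the stages did not overlap for any of these 3 thrombospondins.

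The probe sets of THBS1 differed in the size of the change and in its direction. The 4 above the filter gave average log2 changes of -1.79, -0.74, -0.10 and 0.00, and the tested one is the brightest. The one at -0.10 changed by -0.35 with p73 shRNA and by 0.14 with ns shRNA. The one at 0.00 changed by 0.39 with p73 shRNA and by -0.39 with ns shRNA. In these 2 probe sets the arrays of the stages overlapped. With the mean of all its probe sets THBS1 was still called. SPARC, a collagen-binding glycoprotein, had 6345 (p73 shRNA) and 6952 (ns shRNA) at 100% and 8744 (p73 shRNA) and 7586 (ns shRNA) at 40% and did not pass, at -0.29 (SE 0.18, limma adjusted p 0.227), while its second probe set changed by 0.60. Over the 12 members with several probe sets above the filter, 10 had the same sign of confluence change in all of them, the exceptions being THBS1 and SPARC, and none changed by 0.58 or more in opposite directions.

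TNC, tenascin C, which is deposited in wounds and tumour stroma, had 2924 (p73 shRNA) and 5184 (ns shRNA) at 100% and 1963 (p73 shRNA) and 2761 (ns shRNA) at 40%. Its log2 change was 0.74 (SE 0.18, limma adjusted p 0.00499), the highest array being that of ns shRNA at 100%. A second TNC probe set below the filter changed by -0.67, and with the mean of both the value was 0.04 (limma adjusted p 0.881). SPOCK1, the proteoglycan testican 1, had 959 (p73 shRNA) and 852 (ns shRNA) at 100% and 614 (p73 shRNA) and 524 (ns shRNA) at 40%, a change of 0.66 (SE 0.18, limma adjusted p 0.00867).

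**Figure D3:**
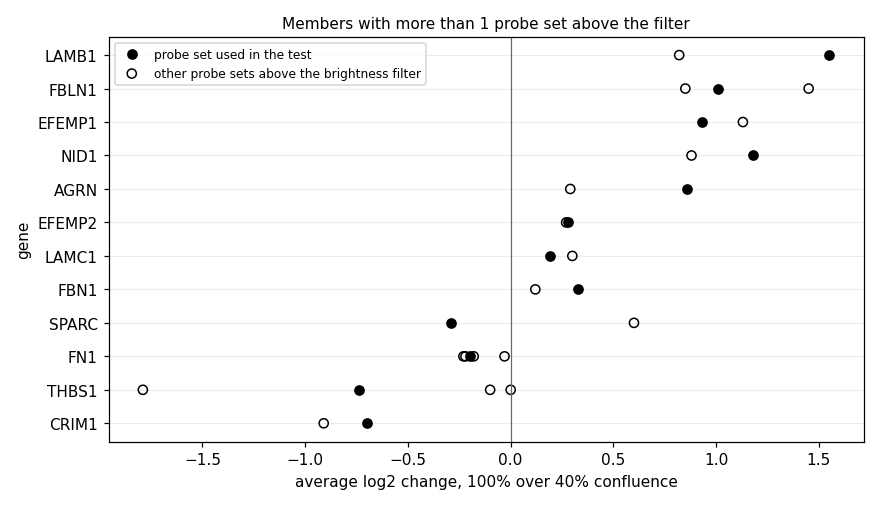
Average log2 change, 100% over 40% confluence, of each probe set of the 12 members with more than 1 above the brightness filter. Filled points are the probe sets used in the test and open points the others; those of THBS1 spread from -1.79 to 0.00, those of SPARC lie on both sides of 0, and the rest keep 1 sign.

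Of the 7 other matrix glycoproteins tested 4 rose, 1 fell and 2 did not pass, with a median log2 change of 0.78. OLFML2A, a secreted olfactomedin-domain protein, had the largest change of the members tested. It passed the filter only through its values at 100%, which favours a large rise. Its intensities were 316 (p73 shRNA) and 739 (ns shRNA) at 100% and 42.5 (p73 shRNA) and 83.3 (ns shRNA) at 40%, a log2 change of 2.79 (SE 0.18, limma adjusted p 1.21e-08). Its relative OLFML2B had 1004 (p73 shRNA) and 972 (ns shRNA) at 100% and 510 (p73 shRNA) and 450 (ns shRNA) at 40%, a change of 1.03 (SE 0.18, limma adjusted p 0.000362). SRPX, a sushi-repeat protein, had 723 (p73 shRNA) and 1227 (ns shRNA) at 100% and 322 (p73 shRNA) and 621 (ns shRNA) at 40%, a change of 1.05 (SE 0.18, limma adjusted p 0.000295). The groups were separate for OLFML2A, OLFML2B and SRPX, in SRPX with both p73 shRNA arrays below the ns shRNA array of the same stage.

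ECM1, extracellular matrix protein 1, had 2253 (p73 shRNA) and 2553 (ns shRNA) at 100% and 1433 (p73 shRNA) and 1349 (ns shRNA) at 40%, a change of 0.78 (SE 0.18, limma adjusted p 0.00314). CRIM1, a membrane-anchored protein that binds bone morphogenetic proteins, had 2025 (p73 shRNA) and 2294 (ns shRNA) at 100% and 3116 (p73 shRNA) and 3976 (ns shRNA) at 40%, a change of -0.70 (SE 0.18, limma adjusted p 0.00609), and -0.91 in its second probe set. CRIM1 and THBS1 were the 2 members that fell. MATN2, matrilin 2, had 451 (p73 shRNA) and 548 (ns shRNA) at 100% and 324 (p73 shRNA) and 486 (ns shRNA) at 40%, a change of 0.31 that did not pass (limma adjusted p 0.191). FN1, fibronectin, the main adhesive glycoprotein of the fibroblast matrix, was singled out after its values were seen: it had 10108 (p73 shRNA) and 9931 (ns shRNA) at 100% and 11584 (p73 shRNA) and 11366 (ns shRNA) at 40%, a change of -0.20 (SE 0.17, limma adjusted p 0.422), and its 5 probe sets above the filter gave -0.23 to -0.03.

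Partner genes of the same networks were counted by role in the same fit, in which 18.3% of all genes rose and 12.3% fell with confluence. Of 6 tested basement-membrane partners 1 rose (16.7%, near the share over all genes); the median log2 change was 1.07 for the basement-membrane members and 0.16 for these partners. The one that rose was COL4A5, a collagen IV chain (1.05, limma adjusted p 0.00121); COL4A1 and COL4A2, the common chains, changed by 0.31 and 0.35 without passing. Of 7 elastic-fibre partners 4 rose (57.1%) and none fell; the median log2 change was 0.30 for the elastic-fibre members and 0.64 for these partners. The risen partners were led by the latent transforming growth factor beta binding proteins LTBP1 (1.98) and LTBP3 (1.57) and the crosslinking enzyme LOXL1 (0.68). Of 6 matricellular relatives and receptors 2 rose and 2 fell (33.3% each): CCN2, connective tissue growth factor, changed by -2.66 (limma adjusted p 3.38e-08) and CCN1 by -1.15, while TGFBI changed by 0.77 and CCN3 by 0.65. Of 9 genes of fibronectin receptors and assembly 3 rose (33.3%) and 1 fell (11.1%), with values of 1.45 for the focal adhesion protein TNS1, 1.04 for the integrin chain ITGA4 and -0.82 for the syndecan SDC2. ITGA5 and ITGB1, the chains of the main fibronectin receptor, changed by 0.11 and -0.08 without passing. Markers of the cell types used as a check also moved with confluence. Of the 11 fibroblast markers 7 rose and 1 fell. Of the 5 tested smooth muscle and pericyte markers ACTA2 rose (0.82, limma adjusted p 0.00284), TAGLN fell (-0.91, limma adjusted p 0.000977) and 3 did not pass; the summed intensity of that list was 4943 (p73 shRNA) and 6016 (ns shRNA) at 100%, against 7877 (p73 shRNA) and 8246 (ns shRNA) at 40%. The part of these markers in the member values was not tested.

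The p73 hairpin was compared with the ns hairpin to ask which of these genes differ when p73 is targeted, and here the stages of confluence stood as repeats. Of the 31 members above the filter 1 rose with p73 shRNA, LAMA4, 3 fell, LAMA5, OLFML2A and SRPX, and 27 did not pass. Over all 6759 genes 0.385% rose and 0.71% fell. The median log2 change of the members was -0.17, against -0.00 over all genes. The average was below 0 in 21 of the 31 members and in 3418 of the 6759 genes. The direction was the same at both stages in 21 of the 31 members and in 3951 of the 6759 genes. All 4 calls were lost after quantile normalization and without the brightness filter, where limma called 0 of 31 and 0 of 41 members. Of these members 8 and 6 had an unadjusted p below 0.05, against 703 of 6762 and 766 of 11963 over all genes.

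LAMA4 and LAMA5, the laminin alpha chains tested, differed in opposite directions with p73 shRNA. At 100% confluence LAMA4 had an intensity of 979 in p73 shRNA cells, against 589 in ns shRNA cells, and at 40% it had 207 (p73 shRNA) against 74.9 (ns shRNA). LAMA5 had 281 in p73 shRNA cells against 408 in ns shRNA cells at 100%, and 24.3 (p73 shRNA) against 104 (ns shRNA) at 40%. The log2 change of LAMA4 was 1.03 on average (0.72 at 100% and 1.34 at 40%, SE 0.19, limma adjusted p 0.0099), and that of LAMA5 was -1.10 (-0.52 and -1.69, SE 0.23, limma adjusted p 0.0215). For both, the difference was larger at 40% confluence, which has no test. Both LAMA5 values at 40% lay below the filter intensity of about 111, and that of 24.3 is dim. All 5 LAMA4 probe sets had a positive average, between 0.46 and 1.33, though only 1 was above the filter. The one at 1.33 changed by -0.08 at 100% and by 2.75 at 40%. The one at 0.46 had intensities between 2.15 and 9.17. After quantile normalization LAMA4 changed by 1.04 (limma adjusted p 0.071) and LAMA5 by -1.16 (limma adjusted p 0.164). Of the alternatives in which each was tested, 3 of 6 called LAMA4 and 2 of 7 called LAMA5.

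OLFML2A and SRPX were lower with p73 shRNA at both stages. OLFML2A had 316 in p73 shRNA cells against 739 in ns shRNA cells at 100%, and 42.5 (p73 shRNA) against 83.3 (ns shRNA) at 40%, so that it fell by 1.00 on the log2 scale on average (SE 0.18, limma adjusted p 0.00965). SRPX had 723 (p73 shRNA) against 1227 (ns shRNA) at 100% and 322 (p73 shRNA) against 621 (ns shRNA) at 40%, an average of -0.84 (SE 0.18, limma adjusted p 0.0256). Both genes were thus lower with the p73 hairpin and higher with confluence. Each has 1 probe set, and after quantile normalization the limma adjusted p was 0.051 for OLFML2A and 0.101 for SRPX.

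**Figure D4:**
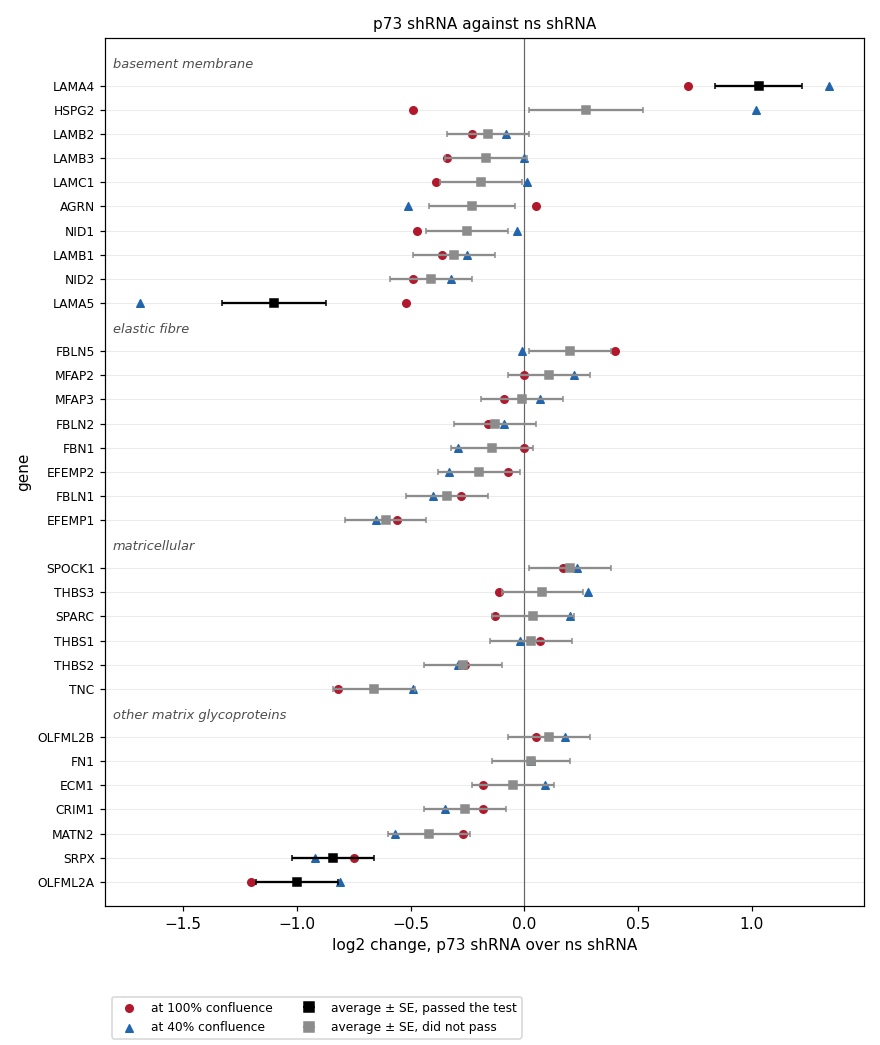
Log2 change of the 31 members, p73 shRNA over ns shRNA, at 100% (circles) and 40% confluence (triangles), and the average with its SE from limma (squares, black where the adjusted p was below 0.05). LAMA4 lies farthest to the right and LAMA5 farthest to the left of the averages, at 1.03 and -1.10.

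Among the members that did not pass, TNC and EFEMP1 had the most negative averages. TNC averaged -0.66 (-0.82 at 100% and -0.49 at 40%, limma adjusted p 0.0995) and EFEMP1 -0.61 (-0.56 and -0.65, limma adjusted p 0.123), and the second EFEMP1 probe set gave -0.90. With an intensity trend limma gave them adjusted p-values of 0.00078 and 0.00577. MATN2 averaged -0.42 (limma adjusted p 0.353) and NID2 -0.41 (limma adjusted p 0.374), each lower at both stages.

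By role, the basement-membrane genes had a median log2 change of -0.21 with p73 shRNA, with 1 risen and 1 fallen of 10, and of the laminin chains other than LAMA4 and LAMA5 the averages lay between -0.31 (LAMB1) and -0.16 (LAMB2). Elastic-fibre genes had a median of -0.13 with 0 of 8 called by limma, 1 having an unadjusted p below 0.05, and matricellular genes 0.03 with 0 of 6 called and also 1 below 0.05. The other matrix glycoproteins had a median of -0.26 with 2 of 7 fallen. Beside these counts, 0.385% of all 6759 genes rose, 0.71% fell, and 803 had an unadjusted limma p below 0.05. The thrombospondins THBS1, THBS2 and THBS3 averaged 0.03, -0.27 and 0.08, and FN1 averaged 0.03. Of the partner lists none had a member called with p73 shRNA by limma. The most negative value was that of COL18A1, the source of endostatin, at -0.73 (limma adjusted p 0.0534, and 0.0106 with an intensity trend). All 6 basement-membrane partners and all 9 genes of fibronectin receptors and assembly averaged below 0, as did 3418 of all 6759 genes. The direction was the same at both stages in only 4 of the 6 and 5 of the 9. Some of these averages lay near 0, such as that of TNS1 at -0.02. Of the fibroblast markers LUM fell with p73 shRNA and the other 10 did not pass, and of the smooth muscle and pericyte markers CNN1 fell; the sums of that list, given above, were lower with p73 shRNA at both stages, as was the beta-actin 3' to 5' ratio. The part of either in the member values was not tested.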

How the data were processed

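Per the labels, trizol was used to extract total RNA, which was then biotin-labelled following Affymetrix's standard protocol. The deposited values are 1 intensity per probe set and array; the summary method was not given in the sources used here. With 2% trimmed from each tail, the arrays' means lay between 500.1 and 500.2, so the authors' values were taken as scaled and used as deposited; a change common to nearly all genes would not show. Groups came from the sample titles. Of 22277 probe sets 62 were controls, 19064 had 1 gene symbol, 1043 had several and 2108 had none listed; 19052 found a current symbol through their Entrez ID.

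Values were converted to log2(intensity + 11.61), the 20th percentile of all values, which understates the changes of dim genes. For each gene the brightest probe set was used, and it was tested when its mean reached the median of the probe sets (6.94), which kept 6759 of 11963 genes. Limma 3.58.1 in R 4.3.3 fitted an additive model of confluence and hairpin over the 4 arrays (1 residual degree of freedom), two-sided, with Benjamini-Hochberg adjustment over the 6759 genes and a threshold of 0.05. A common prior (15.8 degrees of freedom) was used because with an intensity trend the prior was infinite and a gene's own disagreement between arrays did not enter its error. Simulated data were drawn from the spread that this model had fitted, so the recovery of large changes there is no check of its assumptions. In those data the prior could not be estimated precisely, and the share of false calls often exceeded the nominal one. With 15.8 prior against 1 residual degree of freedom, the error of a gene came mainly from the spread pooled over all genes. An SE or p-value here therefore does not measure how well a single gene repeats. Whether the cultures were separate is not stated, so the pooled spread between these arrays may be technical. Alternatives were another normalization, pseudocount, filter, probe set rule, the trend and a model without the other factor.

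The members and gene lists were chosen with earlier results of these data known. Intensities are given for members called with p73 shRNA and for up to 6 members of each role with the largest average change at confluence, and up to 3 called genes of each partner list are named. Other genes named complete a count or were chosen after their values were seen. Figures were drawn with matplotlib 3.10.9.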

Additional observations from a re-analysis of the deposited data

Results flagged for a closer look

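HSPG2, the core protein of perlecan, differed in direction between the stages of confluence in its tested probe set. There the log2 change, p73 shRNA over ns shRNA, was -0.49 at 100% and 1.02 at 40%. The other HSPG2 probe set, below the filter, gave -0.21 at 100% and -0.58 at 40%. The difference between the stages was not tested. With 1 array per group there is no error for a single ratio, and the additive model counts such a difference as noise.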

How the results depend on the processing

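Single members gave 240 values at confluence and 240 with p73 shRNA under the alternatives: 32 and 17 lost a call, 1 and 5 gained one, and none that was called in either setting changed direction. The additive model compares arrays within a hairpin for confluence and within a stage for the hairpins, and the fit without the other factor is the one without that pairing; the labels give no replicate numbers for a further block. At confluence 22 members were called (20 risen, 2 fallen) of 2070 genes; without the brightness filter limma called 0 members, risen or fallen, and 0 genes (22 members and 2336 genes with an unadjusted p below 0.05). The other alternatives called 16 to 23 members, 16 both with the filter at the 70th percentile and without the hairpin term, where 1152 genes were called. Median changes at confluence moved to 0.82 for basement-membrane and 0.41 for matricellular members with the mean of probe sets, to 0.50 for matricellular and 0.31 for other members without the filter, and to 0.55 for other members with the filter at the 70th percentile; the members averaged differ between these settings.

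With p73 shRNA 4 members (1 risen, 3 fallen) of 74 genes were called. Limma called 0 members, risen or fallen, after quantile normalization (8 with an unadjusted p below 0.05), without the filter (6), with probe sets averaged (8) and with confluence left out (0). In the same order, 703 of 6762, 766 of 11963, 663 of 6239 and 72 of 6759 genes had such a p. With the pseudocount at the 5th percentile 2 were called (1 fallen), and with the intensity trend 5 had fallen. With probe sets averaged, LAMA4 fell below the filter and was not tested. With the filter at the 70th percentile LAMA4, LAMA5 and OLFML2A were not tested. There 0 members had risen and 3 had fallen, namely SRPX, EFEMP1 and TNC, of which EFEMP1 and TNC were not called in the main fit. The genes called were 15, 42, 132, 0, 132, 7, 184 and 0 in the order of quantile normalization, the 5th and the 40th percentile as pseudocount, no filter (766 with an unadjusted p below 0.05), the 70th percentile filter, the mean of probe sets, the trend and no confluence term (72). The prior degrees of freedom were 15.8 in the main fit and 2.4 without the filter. They were 7.9 after quantile normalization, 6.6 with the mean of probe sets and 227.2 with the filter at the 70th percentile. A call can thus be lost or gained though the log2 change of the gene stays the same. Without the filter LAMA4 changed by 2.49 at confluence, as in the main fit. Beyond the stated filter effects the causes were not tested. Signal over background limits the 10 members below the filter.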
